A study of Mus musculus with 65 samples.

Results

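The sites described here are 5755 transcription start regions that were counted in the A485 experiment of this series but have no row in the site table of its degrader time course. They were chosen by site identifier alone, and they make up 19.4% of the 29632 sites that the A485 experiment lists; the other 23877 sites occur in both tables and are called shared sites below. Not one of the 5755 absent sites overlaps a site of the time-course table, and every time-course site is in the A485 table. The sources used here do not say why a site is missing from the time course, so the reason was not tested. Of the 22 time-course libraries, 19 received the degrader by their library names. For those treated for 1 h or 2 h without washout, the titles name A485 instead, and which label is right is not known here. A contrast of absent and shared sites after degrader therefore cannot be told apart from how the sites were chosen. If those titles hold, the same limit applies after A485. The lowest mean over the libraries of the time-course table is 8.90, whereas only 598 absent sites (10.4%) against 21439 shared sites (89.8%) have a mean that high in the A485 experiment; the 2 tables were normalized separately.

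All libraries are PRO-seq (precision nuclear run-on sequencing) from MEL cells, a mouse erythroleukemia line, whose Mtg16 carries an FKBP-2XHA tag, so the DMSO controls carry the tagged protein too. Of the 65 libraries in 23 groups, 43 belong to the 3 experiments compared here. The A485 series holds 3 DMSO libraries and libraries treated for 15 min, 30 min or 1 h with the degrader dTAGV1 at 250 nM, with A485 at 10 µM, or with both, each with 3 libraries except A485 and both agents at 30 min, which have 2. The LBH589 series holds 3 libraries each of DMSO, LBH589 at 5 nM for 30 min and LBH589 for 1 h. In the washout series the cells received the degrader and LBH589, and 3 libraries each were made 30 min and 1 h after washout; it has no DMSO group, and the labels do not say at which step LBH589 was present. The labels name 1 tagged line, do not say whether it is 1 clone, and do not say whether replicates are separate cultures, so p-values measure only the spread between these libraries.

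PRO-seq maps engaged RNA polymerase at the base it has reached, and dREG is a classifier that picks out promoters and active enhancers by their paired, divergent transcription. Mtg16 (Cbfa2t3) is a corepressor that joins DNA-bound transcription factors to histone deacetylases in blood progenitors. A485 blocks the acetyltransferase activity of p300 and CBP, which acetylate histones at active enhancers and promoters, and LBH589 (panobinostat) inhibits histone deacetylases. A dREG site is therefore a place where these enzymes can act, but the site itself carries no gene name in the tables; gene context and sequence of the mm39 build were not used here. The erythroid identity of the cells shows in their DMSO gene values, which were 2048 to 2180 for Gata1 and 2510 to 2613 for Epor, against 23.5 to 40.8 for the granulocyte gene Mpo.

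The absent sites are narrow. Their median width was 340 bp (interquartile range 280 to 430, full range 120 to 1180), against 660 bp for shared sites (440 to 1010, full range 60 to 5030). Within bins of LBH589-series DMSO level the widths still differed: among sites with a mean of 3 to 10 in the LBH589 series, the median width was 360 bp for the 2887 absent sites and 500 bp for the 2064 shared sites, and between 10 and 30 it was 370 bp (585 sites) and 510 bp (6170 sites). The bins do not make the signal equal, since in the A485 series the DMSO mean of the same sites was 4.68 for absent against 7.43 for shared sites in the first bin and 8.24 against 16.4 in the second. The widest absent site, chr1:132192671-132193850, spans 1180 bp and had a DMSO mean of 0.61 in the A485 series.

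They are also weak. Values here are normalized read counts per site, the scale on which each experiment was deposited, and the median site mean in the A485 series was 3.46 for absent and 38.0 for shared sites. The same medians were 4.26 and 50.9 in the LBH589 series and 1.69 and 22.3 in the washout series. Per kilobase of site, the A485-series medians were 9.83 and 60.5, so the difference in level remained once width was divided out. In reads, a typical absent site collected 110 over all A485-series libraries, 40 over the LBH589 series and 12 over the washout series, where a typical shared site collected 1203, 471 and 151. Only 3 absent sites had no read at all in the A485 series, 11 in the LBH589 series and 211 in the washout series.

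A few absent sites were as strong as ordinary shared ones. The highest DMSO mean of the A485 series was at chr9:102661681-102662190, with 60.4, 80.0 and 47.1 in the 3 DMSO libraries. In the LBH589 series its DMSO values were 30.6, 15.9 and 13.9, and it was called in none of the 13 comparisons. The next highest, chr5:114477071-114477290, had 38.4, 30.0 and 39.2 there, and was called in no comparison it entered. Only 146 absent sites (2.54%) had a DMSO mean of at least 10 in both the A485 and the LBH589 series, 167 in the A485 series only and 447 in the LBH589 series only; 4995 (86.8%) had it in neither. Among shared sites 20103 (84.2%) had it in both. Fewer absent sites thus reached that level in both experiments than in a single one, and most shared sites reached it in both.

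**Figure D1:**
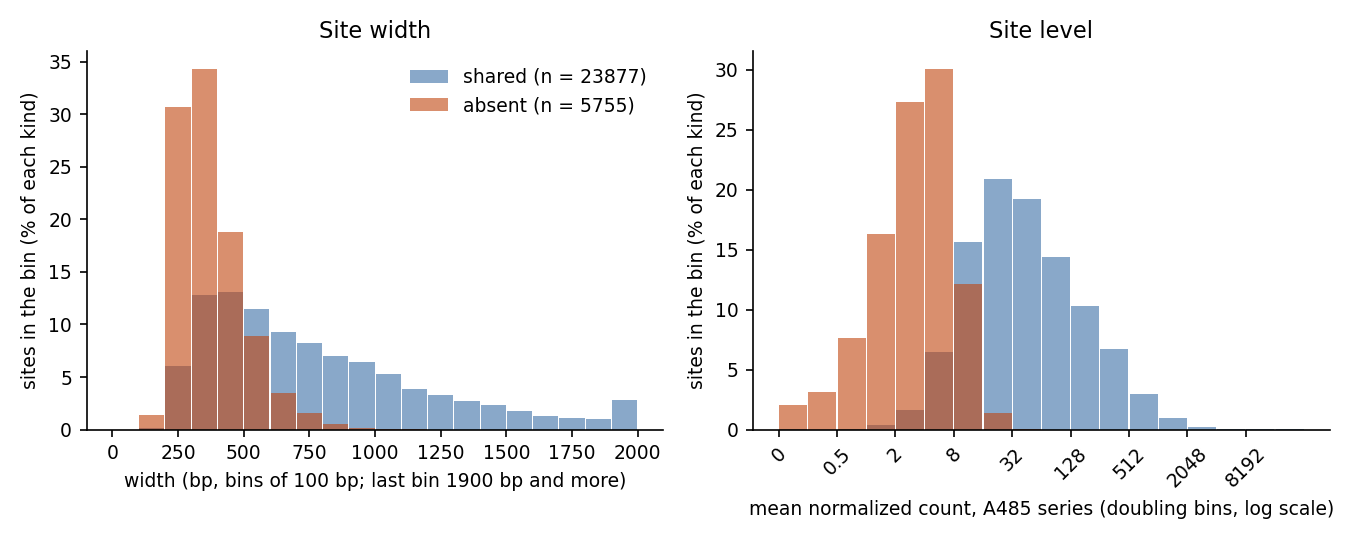
Histograms of site width (bp, linear axis, last bin open) and of mean normalized read count in the A485 series (log axis of doubling bins), each in % of sites, for the 5755 absent and the 23877 shared sites. The absent sites centre on 340 bp and a mean of 3.46 in the A485 series, the shared sites on 660 bp and 38.0.

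On the chromosomes the absent sites were spread widely: between 16.9% (chromosome 19) and 22.4% (chromosome 1) of the sites of each autosome and of X were absent ones, and 8 of 25 on Y. They lay farther from shared sites than shared sites lay from each other. The median distance was 13581 bases against 4021, 932 absent sites (16.2%) against 7259 shared sites (30.4%) had another shared site within 1000 bases, and 2487 (43.2%) against 15675 (65.6%) had one within 10000 bases.

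Depth limits what a single absent site can show. Reads in all dREG sites ranged from 857558 to 7625202 per library in the A485 series, from 2769517 to 4633612 in the LBH589 series and from 1493605 to 3505967 in the washout series. Of these, 7760 to 65178, 19942 to 37599 and 12366 to 28375 fell in the absent sites, and the share of absent sites with at least 1 read was 51.6% to 94.6%, 83.1% to 92.5% and 42.7% to 84.5%. The shallowest is A485 1 h replicate 1, where 1 read is worth 3.42 normalized counts. Washout 1 h replicate 3 stands apart, with 3300 absent sites at 0 reads against 1823 in replicate 2 and 894 in replicate 1. It was not the shallowest of these, with 1837649 reads in dREG sites against 1684400 in replicate 2. The cause was not tested. Reads copied by PCR are not separate molecules, and the share of such copies is not known here.

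As a group, the absent sites took up a larger share of the site reads in every treated library of the A485 series than in any DMSO library. The share was 0.745% to 0.782% in DMSO, 0.813% to 0.868% after 1 h of degrader, 0.905% to 0.964% after 1 h of A485 and 0.923% to 0.954% after 1 h of both agents. At 15 min it was 0.801% to 0.820% with degrader and 0.838% to 0.890% with A485. In the LBH589 series it was 0.720% to 0.747% in DMSO, 0.801% to 0.809% after 30 min and 0.930% to 0.977% after 1 h, again with no overlap. In the washout series it was 0.825% to 0.846% at 30 min and 0.809%, 0.795% and 0.673% at 1 h, the lowest being replicate 3. No p is given for a sum over the sites.

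On the deposited scale the mean value per absent site was 3.94 ± 0.0941 (SD, n = 3) in DMSO, 4.80 ± 0.186 after A485 for 1 h and 4.43 ± 0.131 after degrader for 1 h. The shared sites of the A485 series differed little in this mean, which strong sites dominate, with 123.0 to 123.4 in DMSO and 121.8 to 124.4 after A485 for 1 h. It was 124.4 to 126.1 after degrader and 119.1 to 120.9 after both agents for 1 h, above and below all DMSO libraries. Weak shared sites rose too: those with an LBH589-series DMSO mean of 3 to 10 had 1.24 times their DMSO mean after A485 for 1 h and 1.49 times after degrader. In the LBH589 series both sides of the ratio differed: the mean per absent site was 4.82 to 4.99 in DMSO and 5.46 to 5.65 at 1 h, whereas that per shared site was 159.9 to 160.5 and 138.0 to 140.6.

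**Figure D2:**
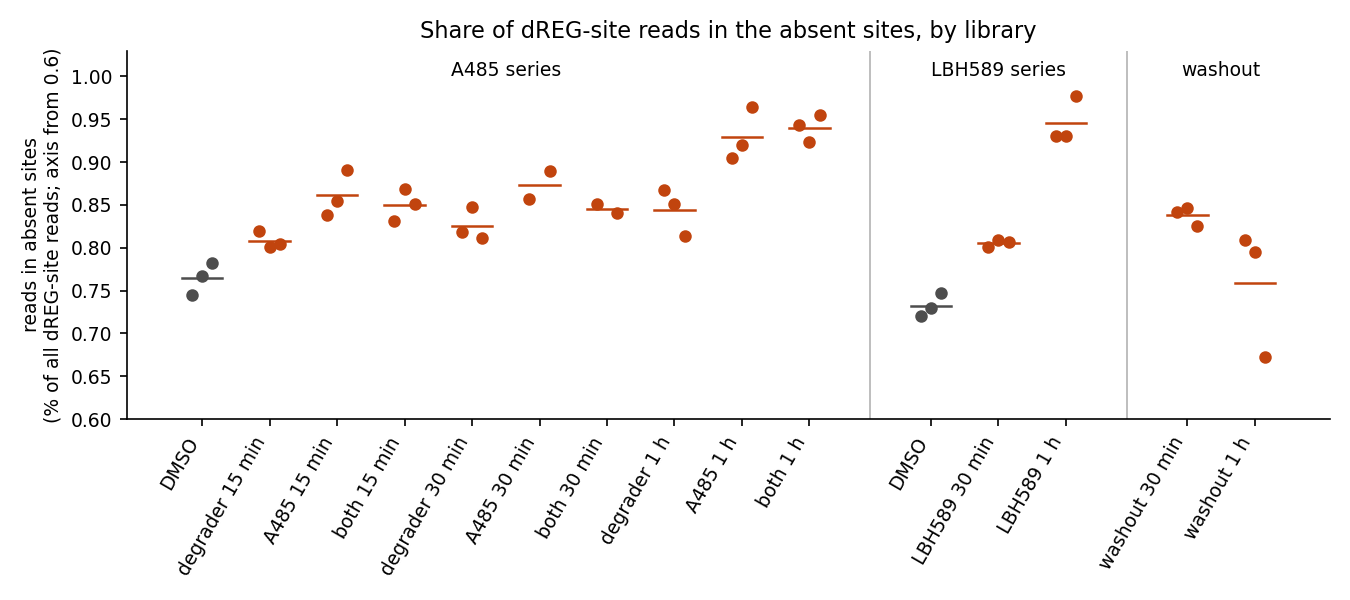
Percentage of the reads in all dREG sites that fell in the 5755 absent sites, 1 point per library, by group in the 3 experiments. DMSO libraries lie between 0.745% and 0.782% in the A485 series and between 0.720% and 0.747% in the LBH589 series, below every treated library of the same series.

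Single sites were tested with limma on log2(value + 1), over all sites of an experiment with a mean of at least 10 across its libraries, and called at a Benjamini-Hochberg adjusted p under 0.05. That minimum kept 431 absent sites (7.49%) in the A485 series, 618 (10.7%) in the LBH589 series and 142 (2.47%) in the washout series, against 20881 (87.5%), 22122 (92.6%) and 17293 (72.4%) of the shared sites. A site that is weak in DMSO enters these 431 only if the treated libraries lift its mean, so counts of rises below describe the sites tested and not the 5755.

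After degrader, 48 of the 431 tested absent sites were higher and 5 lower at 1 h, where 16.2% and 10.4% of all tested sites were called higher and lower. At 30 min 10 were higher and 2 lower (all tested sites 7.37% and 3.05%), and at 15 min 0 higher and 1 lower (4.21% and 1.23%), with 30 at an unadjusted p under 0.05; edgeR's quasi-likelihood test also called 0 higher and 1 lower at 15 min (5.71% and 2.68%). The tested absent sites are weaker than most tested sites, and 426 of the 431 have a mean of 10 to 30. Among tested sites of that range, 10.8% of the absent and 9.08% of the 7321 shared sites were called higher at 1 h, and 1.17% and 4.03% lower. At 30 min 1.88% and 3.91% were called higher. The differences between these shares were not tested. Single libraries decided some of these counts: without DMSO replicate 4, 24 sites in place of 53 were called at 1 h, 5 in place of 12 at 30 min and 0 at 15 min. At 30 min 5 were called without DMSO replicate 5 and 4 without degrader replicate 6, and at 15 min 4 without DMSO replicate 5 or 6 and 0 without degrader replicate 4 or 5.

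After A485, 70 of 431 were higher and 1 lower at 15 min (all tested sites 11.0% and 16.0%), 115 and 4 at 30 min (14.5% and 18.3%) and 163 and 16 at 1 h (18.9% and 24.0%). Both agents together gave 67 and 1 at 15 min (9.60% and 13.3%), 92 and 10 at 30 min (13.2% and 17.3%) and 136 and 10 at 1 h (16.0% and 20.1%). Without A485 15 min replicate 6 the total at 15 min was 45 in place of 71, and without A485 30 min replicate 2 that at 30 min was 58 in place of 119. For both agents at 15 min it was 44, 36 and 40 in place of 68 without DMSO replicate 4 and without replicates 4 and 5 of both agents. Across the 10 contrasts of the series, which share their DMSO libraries, 244 of the 431 were called at least once, 183 only higher, 27 only lower and 34 in both directions. The same count was not made over all tested sites, so it cannot be read as a trait of the absent sites. A485 for 1 h alone called 18.9% of all tested sites higher and 24.0% lower. The combined response at 1 h lay above the sum of the single responses at 6 tested absent sites and below it at 26, by the interaction term of the limma fit (all tested sites 6.53% and 9.73%). That balance holds for sites that passed the minimum of 10 and turns without it, with 89 above and 60 below among the 5752 absent sites with a read (all sites with a read 4.61% and 6.33%).

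**Figure D3:**
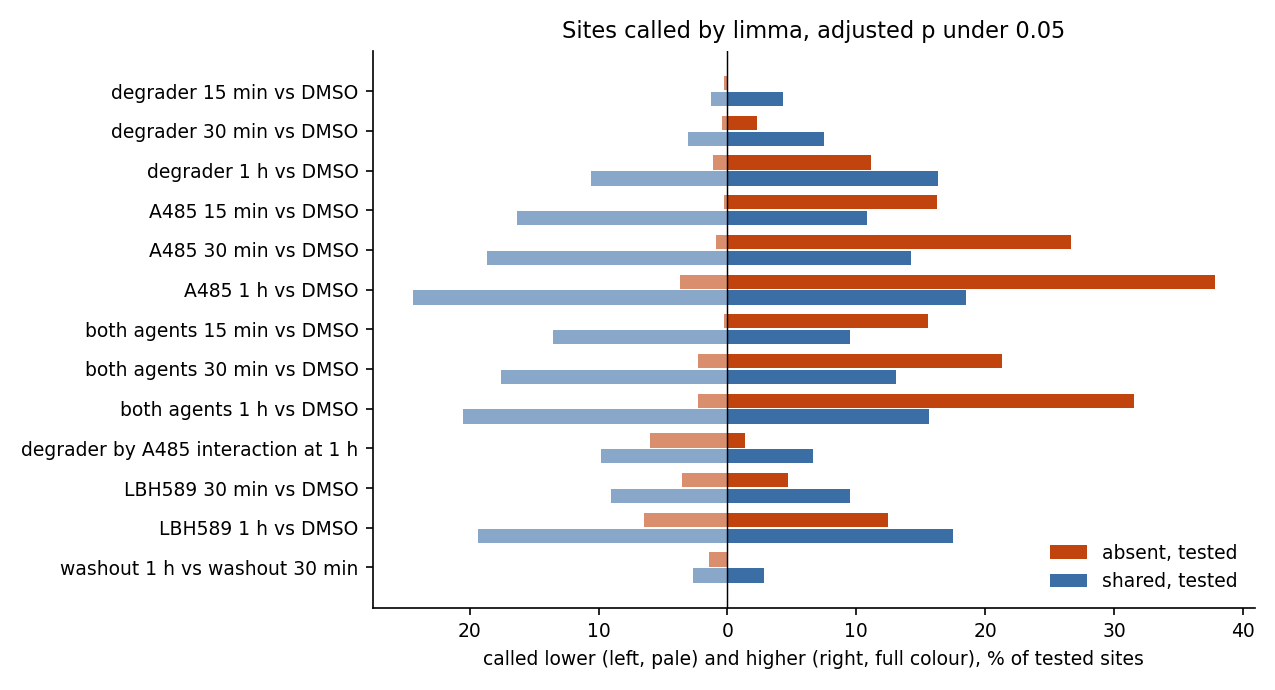
Percentage of tested sites called higher (right) and lower (left) by limma in each of the 13 comparisons, for absent (orange) and shared (blue) sites. After 1 h of A485, 163 of 431 tested absent sites were called higher and 16 lower, against 3864 and 5095 of 20881 shared sites; the absent sites tested are those whose mean reached 10.

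The lean towards rises was not kept when absent sites were picked by their untreated level in another experiment. The LBH589 series has its own DMSO libraries, and 593 absent sites had a DMSO mean of at least 10 there; only 143 of these reach a mean of 10 in the A485 series. With no minimum on the level, limma called 42 of the 593 higher and 108 lower after 1 h of A485, where 14.0% and 20.5% of all sites with a read were called higher and lower. Of those calls, 36 rises but only 8 falls were at sites that pass the minimum of 10. edgeR on the recovered reads called 41 higher and 61 lower (all sites 13.3% and 16.8%). The median log2 difference over the 593 was -0.43 in limma and -0.32 in edgeR, and over all 5752 absent sites with a read it was -0.17 in limma without a minimum. These choices were made after the data had been seen. The A485 1 h libraries are shallower than DMSO: 51.6% to 70.8% of absent sites had a read there, against 83.7% to 85.4%. Sites at 0 reads lower a median of log2(value + 1), and how far depth shaped these falls was not tested. The mean level of the 585 absent sites of 10 to 30 was 8.27 to 8.41 after A485 for 1 h, against 8.15 to 8.32 in DMSO.

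Both agents at 1 h also gave more falls than rises at these 593 sites, with 25 higher and 55 lower in limma (all sites 11.6% and 15.5%), and 36 and 64 in edgeR (13.6% and 17.1%). Degrader at 1 h gave 17 and 15 in limma (all sites 12.2% and 6.98%), and 19 and 33 in edgeR (14.0% and 10.5%), so the balance after degrader depended on the tool. The interaction at 1 h lay above the sum at 23 of the 593 and below it at 9 in limma, against 10 and 13 in edgeR (all sites 5.38% and 6.49%), so its direction depended on both the choice of sites and the tool. Shared sites chosen by the same DMSO level of 10 to 30 gave 802 higher and 896 lower of 6170 after A485 for 1 h and 657 and 98 after degrader for 1 h in limma, where the 585 absent sites of that level gave 42 and 104, and 17 and 15. The contrast after degrader cannot be told apart from how absent sites were chosen, since most time-course libraries received the degrader. edgeR gave 797 and 582 of the 6170 shared sites and 41 and 57 of the 585 absent sites after A485 for 1 h, so the balance of the shared sites, but not that of the absent ones, turned with the tool.

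Mean levels over sites chosen this way differed by level. The same limit holds here for contrasts of absent and shared sites after degrader. Among the 585 absent sites with an LBH589-series DMSO mean of 10 to 30, the mean in the A485 series was 8.15 to 8.32 in DMSO, 7.50 to 7.69 after degrader for 1 h, 8.27 to 8.41 after A485 and 8.22 to 8.25 after both; of these 1 h groups, the degrader libraries lay below the DMSO libraries and the others overlapped them. At 30 min all 3 treatments lay below DMSO, with 7.18 to 7.96 after degrader, 7.90 to 8.01 after A485 and 7.73 to 7.86 after both. The 6170 shared sites of that level had 15.9 to 16.8 in DMSO, 19.6 to 20.5 after degrader for 1 h and 19.0 to 19.9 after A485 for 1 h. For the 2887 absent sites between 3 and 10, the values were 4.57 to 4.77 in DMSO, 5.03 to 5.32 after degrader, 5.56 to 6.09 after A485 and 5.71 to 5.88 after both, all above DMSO. The 2064 shared sites of that level were higher too: their mean was 1.24 times that in DMSO after A485, against 1.25 times for the absent sites, and 1.49 times after degrader, against 1.11 times. For the 2275 under 3, they were 1.76 to 1.96, 2.49 to 2.69, 2.47 to 2.71 and 2.45 to 2.47. At these low levels the count of calls depended on the tool: of the 2887, limma called 230 higher and 289 lower after 1 h of A485, and edgeR 214 and 90.

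**Figure D4:**
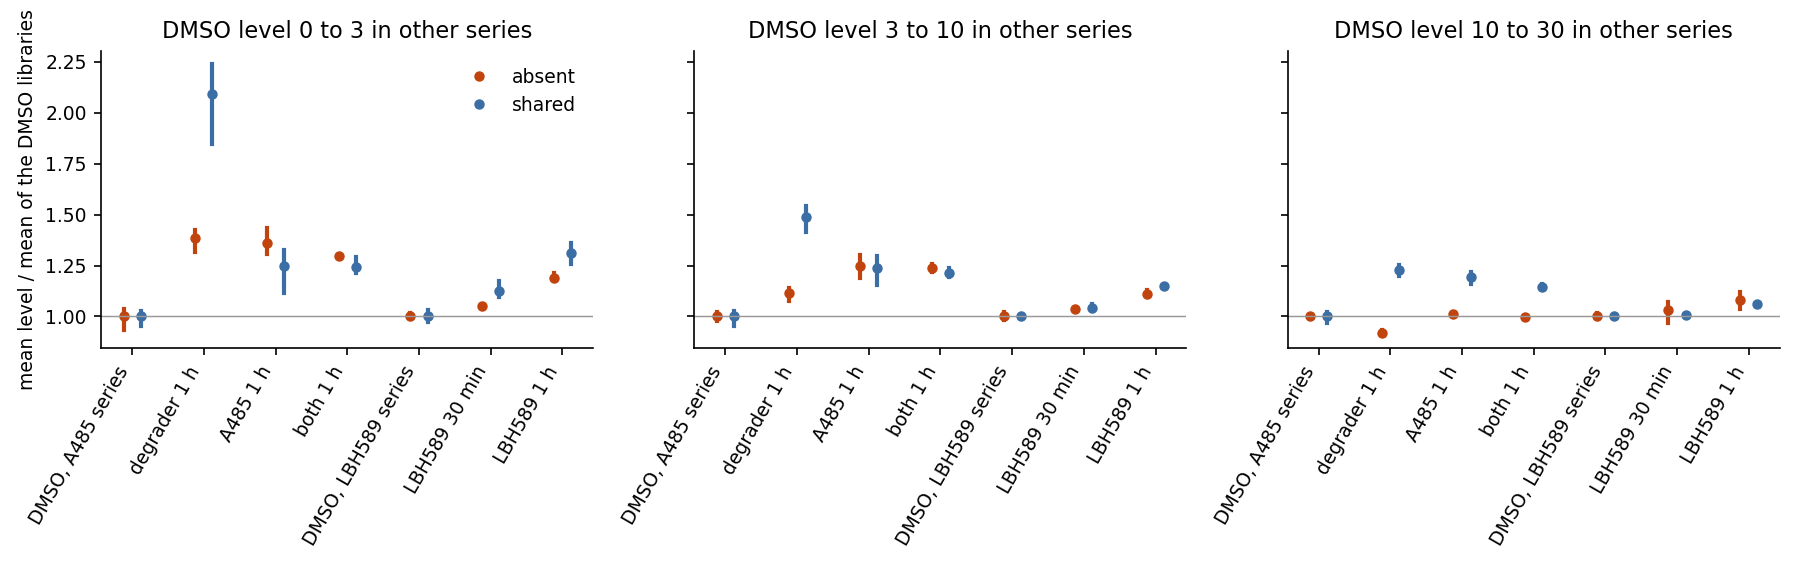
Mean level of absent and shared sites in each group, divided by the mean of the DMSO libraries of the same series, with sites grouped by their DMSO mean in the other series (A485 or LBH589). Points are means over libraries and bars the lowest and highest library. After 1 h of degrader, sites of 10 to 30 lie at 0.921 (absent) and 1.23 (shared). Most libraries of the time course, which defines the absent sites, received degrader, so this contrast cannot be told apart from the choice of sites.

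Each single site described in the Results below with a rise at 1 h had a DMSO mean under 10 in its own series. Treated libraries thus carried it past the minimum of 10, and its p-value holds for a site that entered in that way. Among single sites, chr1:91685071-91685620 had the smallest adjusted p for A485 at 1 h of those named here. It had 9.15, 6.67 and 9.80 in DMSO, 33.7, 28.5 and 56.1 after A485 for 15 min, 69.3 and 59.9 at 30 min, and 68.4, 77.4 and 84.8 at 1 h. All A485 libraries lie above all DMSO libraries, and the values at 1 h exceed those at 15 min. The log2 change at 1 h was 3.04 (SE 0.30, limma adjusted p = 1.43e-10). Degrader alone for 1 h gave 39.2, 14.0 and 22.0, a rise of 1.35 (adjusted p = 0.000771 in limma), and both agents gave 64.0, 57.1 and 67.1, so the combined rise of 2.75 was 1.63 below the sum of the single ones (interaction adjusted p = 0.00694, limma). The site is 17621 bases from the nearest shared site, and LBH589 for 1 h gave 10.9, 4.55 and 9.61 against 13.9, 7.96 and 9.59 in the DMSO libraries of that series, where the groups overlap.

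The site chr19:6565671-6565960 rose with each agent. DMSO gave 1.83, 0 and 4.90, degrader for 1 h 13.4, 7.85 and 9.86, A485 for 1 h 37.6, 40.8 and 25.9, and both agents 19.9, 17.4 and 23.4. None of the 3 treated groups overlaps DMSO, and the combined treatment lies between the single ones. The log2 changes were 2.12 (SE 0.49, adjusted p = 0.00122), 3.78 (6.39e-08) and 3.05 (4.7e-06) in limma, and the interaction was -2.86 (0.00434). At chr12:76051231-76051880, A485 moved 0, 3.34 and 3.92 in DMSO to 20.5, 29.5 and 48.4 at 1 h (log2 3.52, limma adjusted p = 1.92e-06), while degrader alone gave 8.92, 2.62 and 4.06.

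At chr4:98124871-98125210 the degrader gave a rise of 2.02 at 1 h (SE 0.35, limma adjusted p = 3.58e-05). DMSO values were 4.57, 4.45 and 10.8 and degrader values 26.8, 38.4 and 20.9, which do not overlap. A485 for 1 h gave 17.1, 22.5 and 27.7 and both agents 28.3, 31.3 and 39.0, also above all DMSO libraries. At chr13:12300101-12300290, DMSO gave 5.49, 0 and 3.92, degrader 18.7, 14.0 and 9.86 and both agents 21.0, 27.9 and 26.5 (log2 2.22 and 3.03, limma adjusted p = 0.00238 and 2.91e-05). A485 alone for 1 h gave 10.3, 11.3 and 12.1 there, also above all DMSO libraries.

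A pair of absent sites on chromosome 1, 4.71 kb apart, moved in opposite directions. At chr1:75491791-75492080, DMSO gave 2.74, 4.45 and 7.84 and A485 for 1 h 44.5, 39.4 and 53.6, with a log2 rise of 3.04 (limma adjusted p = 2.08e-08). At chr1:75496791-75497080, DMSO gave 35.7, 26.7 and 35.3 and A485 for 1 h 6.84, 15.5 and 12.1, with a fall of 1.48 (0.00301). The first was also higher after degrader for 1 h (12.5, 19.2 and 16.2; 1.57, 0.00164), whereas the second gave 12.5, 18.3 and 18.0 there (adjusted p = 0.0738 in limma).

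Falls were rarer among the tested sites, but the minimum of 10 keeps weak sites that treatment lifts and can drop sites that it lowers. Without a minimum, limma called 387 higher and 493 lower of 5752 absent sites after A485 for 1 h (all sites with a read 14.0% and 20.5%). At chr15:88775891-88776290, DMSO gave 21.0, 15.6 and 25.5 and A485 for 1 h 10.3, 1.41 and 0, with no overlap (log2 fell by 2.83, SE 0.57, limma adjusted p = 0.000109). At chr1:21150591-21150780, DMSO gave 25.6, 13.3 and 14.7 and degrader for 1 h 4.46, 2.62 and 5.80 (fell by 1.83, 0.00255). At chr7:140970621-140970940, A485 for 1 h gave 0, 7.04 and 5.19 against 27.4, 18.9 and 14.7 in DMSO (fell by 2.49, 0.00133).

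Some falls were found only at sites that the minimum of 10 leaves out. At chr5:44014111-44014510, DMSO gave 19.2, 32.2 and 18.6, A485 3.64, 6.85 and 1.70 at 15 min and 0, 0 and 1.73 at 1 h. The DMSO and A485 libraries do not overlap at either time, and the fall at 1 h had an adjusted p of 7.65e-08 in limma without a minimum and 2.28e-06 in edgeR. Its LBH589-series DMSO values were 26.5, 21.6 and 27.7, on a scale that was normalized separately. At chr15:9217261-9218390, one of the 3 widest absent sites, DMSO gave 18.3 to 22.5, degrader for 1 h 7.14, 3.49 and 4.06 and A485 for 1 h 3.42, 4.22 and 0. That site fell by 1.90 and 2.90 (adjusted p = 0.0109 and 5.02e-05, limma without a minimum), and LBH589 for 1 h moved it from 30.6, 26.2 and 25.6 to 9.23, 10.9 and 13.1 (fell by 1.24, 0.00204).

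**Figure D5:**
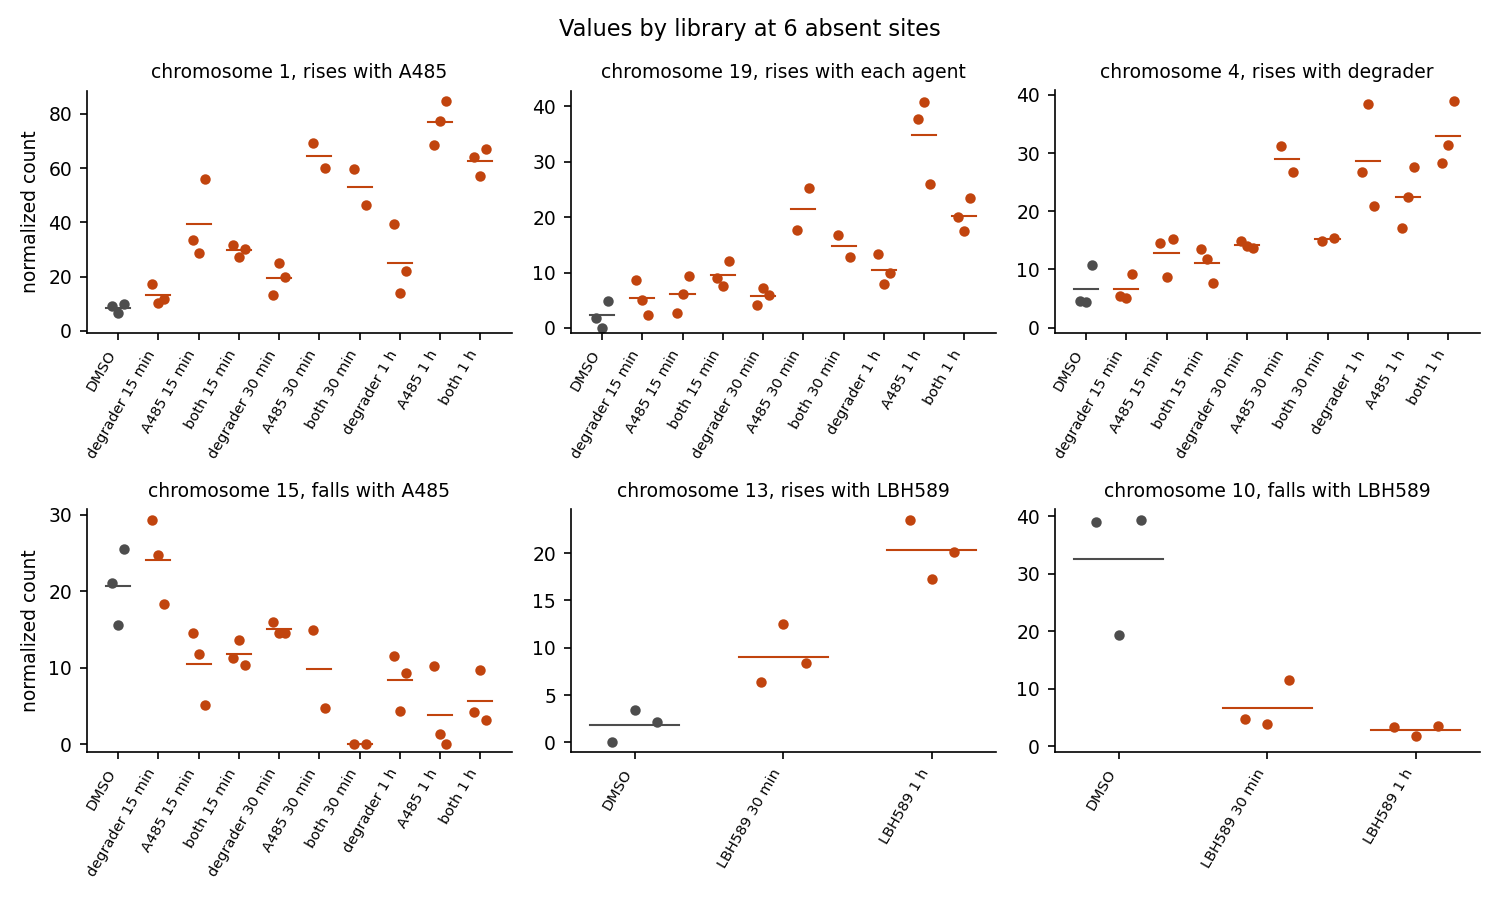
Normalized read count in each library, with the group mean as a bar, at 6 absent sites: 4 in the A485 series and 2 in the LBH589 series. The chromosome 1 site goes from 6.67 to 9.80 in DMSO to 68.4 to 84.8 after 1 h of A485, and the chromosome 10 site from 19.3 to 39.4 in DMSO to 1.82 to 3.50 after 1 h of LBH589.

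Among absent sites that passed the minimum of 10, LBH589 gave rises and falls more evenly than A485. That did not hold without a minimum: at 1 h of LBH589, limma then called 403 higher and 139 lower of 5744 absent sites (all sites with a read 14.2% and 14.3%). Of the 618 tested absent sites, 29 were higher and 22 lower at 30 min (all tested sites 9.34% and 8.93%), and 77 and 40 at 1 h (17.4% and 19.0%). Among tested sites with a mean of 10 to 30, 12.4% of the absent and 14.9% of the 6326 shared sites were called higher at 1 h. Called lower were 6.34% and 6.10%, so shared sites of that level also gave more rises than falls. With values scaled by the reads in the gene table instead, the split was 44 and 15 at 30 min and 124 and 27 at 1 h, and that scaling moved the median of all tested sites at 1 h from -0.01 to 0.21 on the log2 scale. Absent sites with an A485-series DMSO mean of at least 10, of which there were 313, gave 21 higher and 10 lower at 1 h in limma without a minimum (all sites 14.2% and 14.3%), and 22 and 13 in edgeR (14.1% and 14.5%). Shared sites with such a mean of 10 to 30 gave 1001 higher and 477 lower of 7092 in limma, where the 310 absent ones gave 21 and 10. For the 2670 absent sites with an A485-series DMSO mean of 3 to 10, the mean level was 6.36 to 6.64 in DMSO and 7.11 to 7.34 after LBH589 for 1 h, with no overlap. The 2919 shared sites of that level had 11.4 to 11.7 in DMSO and 13.1 to 13.3 after LBH589 for 1 h. Without LBH589 30 min replicate 1 or 3, 29 or 33 sites in place of 51 were called at 30 min.

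The site chr13:112031061-112031430 rose in steps, from 0, 3.41 and 2.13 in DMSO to 6.35, 12.5 and 8.40 at 30 min and 23.5, 17.3 and 20.1 at 1 h. The 3 groups do not overlap, and the log2 changes were 2.02 and 3.14 (SE 0.47 each, limma adjusted p = 0.00127 and 4.34e-07). At chr3:51102971-51103370, 2.78, 7.96 and 4.26 became 20.1, 26.4 and 20.1 at 1 h (2.03, limma adjusted p = 9.38e-06). In the A485 series this site also had 13.7, 47.8 and 41.5 after A485 for 1 h against 4.57, 8.89 and 6.86 in DMSO.

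The largest fall by the naming rule was at chr10:21120071-21120470, with 39.0, 19.3 and 39.4 in DMSO, 4.76, 3.83 and 11.6 at 30 min and 3.35, 1.82 and 3.50 at 1 h. No treated library reaches a DMSO library, and the log2 value fell by 3.07 at 1 h (SE 0.42, limma adjusted p = 7e-08). A second absent site 23.9 kb away, chr10:21095921-21096210, had 19.5, 44.3 and 47.9 in DMSO and 6.71, 5.46 and 17.5 at 1 h (fell by 1.88, 6.95e-05). The first lies 321 bases and the second 131 bases from the nearest shared site. Both had lower DMSO values in the A485 series, 3.66 to 4.90 and 3.66 to 11.1, a level set across tables that were normalized separately. Both are listed at 0 in all 3 libraries of A485 for 1 h (adjusted p = 0.00293 and 0.000251 in limma without a minimum, 0.029 and 0.00488 in edgeR). At chr9:70744671-70745030, LBH589 for 1 h gave 6.71, 7.28 and 7.87 against 22.3, 35.3 and 35.2 in DMSO (fell by 1.92, limma adjusted p = 1.06e-05), and the site is listed at 0 in all libraries of A485 alone at 15 min, 30 min and 1 h. That site lies 371 bases from the nearest shared site. In the order named, the sites of this paragraph had LBH589-series DMSO means of 32.6, 37.3 and 30.9. Their means over all libraries of that series were 14.1, 18.8 and 15.7. The DMSO libraries thus carried them past the minimum of 10, and their p-values for LBH589 hold for sites that entered in that way.

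The LBH589 and A485 series share no control libraries, so their calls can be set side by side. Of 166 absent sites tested in both, 43 were higher after A485 for 1 h and 22 after LBH589 for 1 h, with 7 in common, which is 16.3% of the first list and 31.8% of the second. Among all 166, 13.3% were higher after LBH589 and 25.9% higher after A485, so each share in common is close to the share among all 166. Of the 5 sites lower after LBH589, 2 were higher after A485 and 0 were lower, where 8 of the 166 were lower after A485. Degrader for 1 h gave 16, with 2 in common with LBH589 (12.5% and 9.09%). Among the 20474 shared sites, 17.7% were higher and 20.3% lower after LBH589, 18.3% higher and 24.8% lower after A485, and 16.3% higher after degrader. Their higher lists had 964 in common for A485 (25.8% and 26.6%) and 1058 for degrader (31.8% and 29.2%). Their lower lists had 1654 in common for A485 (32.6% and 39.9%). The lists of absent sites are short, and the difference in overlap was not tested.

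Tested absent sites near a shared site tended to differ in the same direction as that neighbour. Over 145 absent sites with a tested shared site within 10000 bases, the log2 differences of site and neighbour correlated with r = 0.35 after degrader for 1 h and r = 0.29 after A485 for 1 h, and 91 and 90 pairs had the same sign. Over 336 pairs in the LBH589 series at 1 h, r was 0.46 and 229 pairs (68.2%) had the same sign. Both members of a pair come from the same libraries, so these values are a description only.

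In the washout series 2 of 142 tested absent sites were lower at 1 h than at 30 min after washout and 0 were higher (all tested sites 2.70% and 2.83%), with 24 at an unadjusted p under 0.05; edgeR called 0 higher and 5 lower (3.37% and 3.25%). Without washout 1 h replicate 3, limma called 2 higher and 10 lower, without replicate 1 it called 1 and 5, without replicate 2 it called 0 and 1, and without any 1 of the 30 min libraries it called 0. The 2 sites were chr7:27346341-27346790, with 20.3, 16.6 and 15.5 at 30 min and 4.97, 2.16 and 5.53 at 1 h (fell by 1.88, limma adjusted p = 0.0474), and chr15:75860611-75861100, with 19.3, 38.0 and 21.0 and 10.9, 6.48 and 5.53 (fell by 1.63, 0.0428). The groups do not overlap at either site, but each call was kept in only 2 of the 6 fits that leave out a library. Their means over the series were 10.8 and 16.9, and the 30 min libraries carried both past the minimum of 10. Their p-values hold for sites that entered in that way.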

How the data were processed

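PRO-seq signal at dREG sites was taken from 4 tables of normalized counts, which the authors deposited as DESeq-normalized by the tables' titles. The submitters' processing notes name mm39 and dm3 with no role; mouse coordinates are taken as mm39. The notes also name Bowtie2 2.2.2, SAMtools 1.16.1, featureCounts 2.0.1 and DESeq2 1.46.0. Within each library of the 3 tested tables, 100% of values were whole multiples of 1 read (tolerance 0.1), so reads were recovered. No per-sample column was left unused (0). The time-course table served only to define the sites. For 5 of its libraries the labels conflict, with the degrader in the library name and A485 in the title. No time-course library entered a test.

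Tests kept sites whose mean over a table's libraries reached 10 and used R 4.3.3 and limma 3.58.1 (lmFit, eBayes with trend) on log2(value + 1), with all groups of a table in 1 fit; adjusted p-values were taken over all sites tested, at 0.05. edgeR 4.0.16 quasi-likelihood tests on the recovered reads were an alternative, as were a pseudocount of 5, no minimum, a minimum of 30, TMM factors, scaling by gene-table reads, only the groups compared, a replicate block and each library left out. limma and edgeR fits were tested on simulated data. Named sites are, among called members whose 2 groups do not overlap, up to 6 each way at 1 h and up to 3 elsewhere, plus the 5 with the highest DMSO mean, the 3 widest and the 3 highest called in none; some are not described. The members and lists were chosen with earlier results of these data known. No library pair was closer than sampling noise allows: the lowest chi-square per degree of freedom between replicates was 1.54. The highest was 10.5, between washout 1 h replicates 1 and 3, where replicates 1 and 2 gave 2.83.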

Additional observations from a re-analysis of the deposited data

Results flagged for a closer look

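At 1 h, the response to both agents differed from the sum of the single responses at 32 of 431 tested absent sites, by the interaction term of the limma fit (26 below the sum and 6 above it; all tested sites 9.73% and 6.53%). The balance turned with the choice of sites: limma without a minimum gave 89 above and 60 below, and at the 593 absent sites chosen by their LBH589-series DMSO level 23 above and 9 below, where edgeR gave 10 and 13. Leaving out 1 library gave 17 to 46: 17 without DMSO replicate 4, 18 and 21 without replicates 1 and 2 of both agents, and 20 without degrader replicate 5.

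The largest departures above the sum were at chr7:140970621-140970940 (2.72 on the log2 scale, adjusted p = 0.0316), chr15:88775891-88776290 (2.30, 0.0474) and chr15:82104621-82104980 (2.22, 0.00543), all from limma. At the first site the means were 20.3 in DMSO, 10.0 after degrader, 4.07 after A485 and 11.6 after both. In the same order they were 20.7, 8.41, 3.89 and 5.69 at the second. The combination thus lay below DMSO at both, where counts after A485 alone were low. At chr15:82104621-82104980 the values were 11.0, 12.2 and 13.7 in DMSO, 6.24, 7.85 and 6.96 after degrader, 10.3, 7.04 and 3.46 after A485 and 21.0, 19.5 and 18.7 after both. Both single agents thus lay below DMSO and their combination above it, and the call was kept in all 12 fits that leave out a library, against 5 of 12 and 3 of 12 at the first and second sites.

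Below the sum, the largest were chr19:6565671-6565960 (-2.86, limma adjusted p = 0.00434), chr10:90739101-90739390 (-2.58, 0.0297) and chr14:47682321-47682930 (-2.31, 0.00722). The calls on chromosomes 19 and 14 were kept in all 12 such fits and that on chromosome 10 in 7 of 12.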

How the results depend on the processing

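Counts of absent sites called moved most with the minimum level. With no minimum, limma called 16, 71 and 256 after degrader for 15 min, 30 min and 1 h, 201, 455 and 880 after A485, 186, 548 and 507 after both agents, 149 for the interaction, 193 and 542 after LBH589 for 30 min and 1 h, and 8 in the washout series. With a minimum of 30 only 5, 3 and 7 absent sites remain in the 3 tables, and 0, 2 and 2 (degrader), 3, 3 and 3 (A485), 3, 3 and 3 (both), 2 (interaction), 3 and 2 (LBH589) and 0 (washout) were called. Chosen by another experiment's DMSO level (after seeing the data), absent sites gave in limma 7 and 32 for degrader at 30 min and 1 h, 40 and 79 for A485 at 15 and 30 min, 41 and 80 for both agents at 15 min and 1 h, 12 and 31 for LBH589 and 1 for washout. edgeR gave 3 for degrader at 15 min, 49 and 102 for A485 at 30 min and 1 h, 41 and 31 for both agents at 15 and 30 min, 16 and 35 for LBH589 and 1 for washout. Fitting only the groups compared gave 11 and 7 for degrader at 15 and 30 min and 106 for both agents at 15 min; scaling by gene-table reads gave 3 for degrader at 15 min and 1 for washout; a pseudocount of 5 gave 7 and edgeR 5 for washout. The cause was not tested.

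Leaving out 1 library gave 0 to 4, 4 to 10 and 24 to 47 for degrader, 45 to 72, 58 to 105 and 144 to 180 for A485, 36 to 61, 72 to 85 and 106 to 128 for both agents, 17 to 46 for the interaction, 29 to 46 and 85 to 112 for LBH589 and 0 to 12 for washout. The lowest values came without A485 15 min replicate 6 (45), A485 30 min replicate 2 (58), both agents 15 min replicate 4 (36) and LBH589 30 min replicate 1 (29). A replicate block gave 6 and 23 for degrader at 15 and 30 min and 4 for washout. Same-numbered libraries did not deviate together (r from -0.172 to 0.0983 in the A485 series), so the numbers were not taken as pairs; 1 of 18 libraries there correlated best with its own number. Of 544 values for named sites under other settings, 527 stayed on the same side of the threshold, 17 lost it and 0 reversed; of 540 with a library left out, 447 stayed and 93 lost it. Depth limits the absent sites: a typical one collected 12 reads over the whole washout series.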
